A study of Rattus norvegicus with 9 samples.

Results

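The genes described here encode integrins, the cell surface receptors for the extracellular matrix, and the proteins that assemble on their cytoplasmic tails at focal adhesions. The rule that picks them reads gene symbols and no measured value, although it was drawn up with earlier results of these data known. A member was any gene whose symbol is Itga or Itgb followed only by letters or digits, or 1 of 17 named adhesion proteins (Tln1, Tln2, Vcl, Pxn, Zyx, Ptk2, Ilk, Parva, Parvb, Fermt1, Fermt2, Lims1, Lims2, Flna, Actn1, Actn4 and Bcar1), and the 3 partner genes Itgb1bp1, Itgb1bp2 and Itgb3bp were left out. This gave 43 of the 32623 genes in the deposited table: 17 integrin alpha subunits, 8 beta subunits, the 17 adhesion proteins and Itgbl1. Itgbl1 encodes a secreted protein with repeats like those of beta integrins and is not a receptor subunit. Levels are given as FPKM (fragments normalised to exon length and library size), which allows levels of different genes to be set side by side. Of the 43 members, 28 reached an FPKM of 1 in 3 or more libraries out of 9 and were tested: 8 alpha subunits, 3 beta subunits, Itgbl1 and 16 adhesion proteins.

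RNA-seq values were available for 9 libraries of primary smooth muscle cells from the rat aorta, all labelled wild type (WT), with 3 libraries in each of 3 groups. PDGF-BB+PTUPB cells received PTUPB, a dual inhibitor of cyclooxygenase-2 and soluble epoxide hydrolase, at 0.5 µM for 2 h and then platelet-derived growth factor BB (PDGF-BB), a smooth muscle mitogen, for 24 h. PDGF-BB cells received the growth factor for 24 h without PTUPB, and Control cells received DMSO. The dose of PDGF-BB is 10 ng/mL in the sample labels and 20 ng/mL in the series design. All groups were grown in 20% serum, used at passages 4 to 8, kept without serum for 12 h and treated in 2% serum. Cells given PTUPB alone were not analysed here. Whether libraries of 1 group derive from separate animals or cultures is not given in the labels, and p-values therefore cover only the differences between these libraries, which could be technical. In these bulk samples, fewer cells of a type and less RNA per cell cannot be told apart.

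An integrin is a pair of an alpha and a beta subunit, and the alpha subunit largely sets which matrix protein is bound: alpha1 and alpha11 bind collagens, alpha5, alphav and alpha8 bind the RGD motif of proteins such as fibronectin, and alpha3, alpha6 and alpha7 bind laminins. Talins and kindlins bind the beta tail and switch the receptor on, the ILK, PINCH and parvin complex couples it to actin, and FAK, paxillin and p130Cas relay its signals. In the artery wall these adhesions carry tension between smooth muscle cells and their matrix, and PDGF-BB is known to move such cells towards a proliferative and migratory state.

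Counts summed to between 12729187 and 16911050 per library, of which the members took 1.028% to 1.498%. Of the 10 listed smooth muscle genes, 9 passed the filter. Acta2 had mean FPKM of 563.6 ± 27.5 in PDGF-BB+PTUPB, 479.3 ± 36.3 in PDGF-BB and 659.3 ± 113 in Control (SD, n = 3 each). Myh11, the smooth muscle myosin, had 4.32 ± 0.169, 3.05 ± 0.526 and 5.99 ± 0.698 FPKM in the same groups. Des was near 0, with mean FPKM of 0.053, 0.12 and 0.02 in the same order, and was not tested. The leukocyte genes Ptprc and Tyrobp, the endothelial genes Cdh5, Kdr, Tie1 and Emcn and the Schwann cell gene Sox10 had 0 counts in every library. Control replicate 2 stood apart from its group: 25 of the 28 tested members lay below the mean of the other 2 Control libraries, by a median of -0.29 on the log2 scale against 0.0085 for all tested genes. Its deviation was -0.57 over the 7 members with at least 5000 bases of exon. PDGF-BB replicate 3 was low in a few members, with log2 deviations of -1.21 for Itga1, -1.15 for Itgb8, -0.87 for Lims1 and -0.67 for Itga8. It was not low over the members as a whole. Its median deviation was 0.0726 over the 28 members and 0.0944 over the 7 long ones, against 0.0507 for all tested genes. Across all tested genes the deviation fell with exonic length in both libraries (Spearman's rho of -0.381 in PDGF-BB replicate 3 and -0.389 in Control replicate 2, across genes that share a library). It rose with length in PDGF-BB replicate 2 (0.350) and Control replicate 1 (0.348), though deviations within a group offset one another. The tested members are long genes, with a median exonic length of 3856 bases against 2336 for all tested genes. Beside each comparison, values are also given from fits without these libraries. For PDGF-BB against Control and PDGF-BB+PTUPB against PDGF-BB, values from a fit with a length term are given as well.

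**Figure D1:**
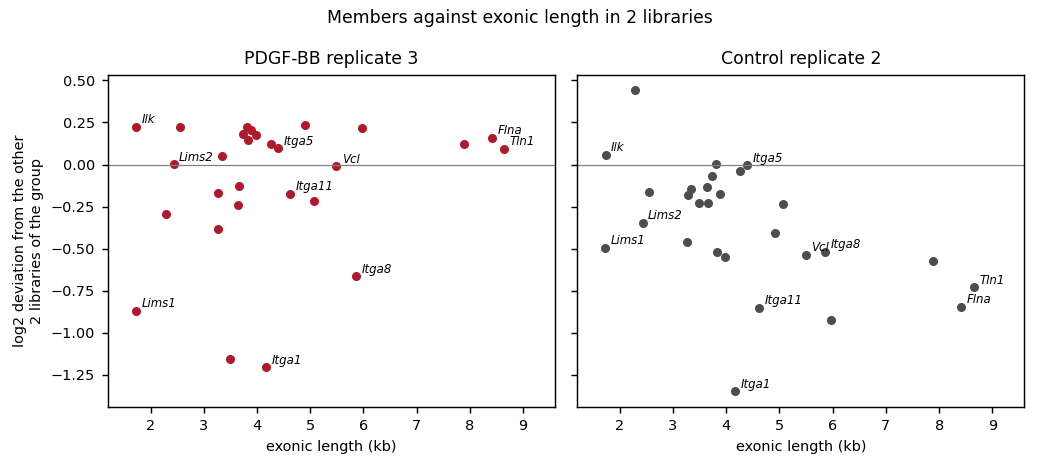
Log2 deviation of each tested member in PDGF-BB replicate 3 (left) and Control replicate 2 (right) from the mean of the other 2 libraries of its group, against exonic length in kilobases, with 1 point per gene. In Control replicate 2 most points lie below 0, with a median of -0.29, and in PDGF-BB replicate 3 the lowest are Itga1, Itgb8, Lims1 and Itga8.

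Transcripts of collagen-binding and beta1 subunits made up most of the integrin message in these cells. Itgb1, the beta1 subunit that pairs with most of the alpha subunits measured, had 523.8, 544.5 and 541.7 FPKM in PDGF-BB+PTUPB replicates 1 to 3, 632.8, 675 and 592.2 FPKM in PDGF-BB and 547.3, 459.9 and 504.5 FPKM in Control. It was 77.2 ± 0.282% of summed beta subunit FPKM in PDGF-BB+PTUPB, 80.0 ± 2.00% in PDGF-BB and 76.8 ± 1.495% in Control (SD, n = 3 each). Nearly all of the rest was Itgb5, a partner of alphav, at 152.1 ± 3.26, 151 ± 12.0 and 143 ± 9.86 FPKM in the same order. Itgb8, the alphav partner that activates latent TGF-beta, had 5.65 ± 1.27 FPKM in PDGF-BB+PTUPB, 5.89 ± 2.54 FPKM in PDGF-BB and 7.80 ± 0.763 FPKM in Control.

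Among alpha subunits the order of levels was the same in PDGF-BB+PTUPB and Control means for the leading pair, Itga11 and then Itga8. Itga11 held 60.15 ± 0.198% of summed alpha subunit FPKM in PDGF-BB+PTUPB, 47.5 ± 1.34% in PDGF-BB and 56.2 ± 3.24% in Control. Itga5 held 8.14 ± 0.728%, 17.7 ± 2.36% and 8.03 ± 2.43%, and was the alpha subunit with the second highest mean FPKM in PDGF-BB cells (72.0 ± 4.05, against 55.6 ± 13.9 for Itga8). Itgav had 44.0 ± 2.34 FPKM in PDGF-BB+PTUPB, 44.95 ± 8.36 FPKM in PDGF-BB and 44.5 ± 7.71 FPKM in Control, where it did not differ beyond its spread from its neighbours Itga1 (46.9 ± 20.2) and Itga5 (46.1 ± 1.19). The laminin-binding subunits were low, with Itga3 at 17.5 ± 0.910, 20.1 ± 1.88 and 18.4 ± 2.72 FPKM and Itga6 and Itga7 at means between 0.987 and 2.29 FPKM. The 2 collagen-binding subunits Itga11 and Itga1, with the near-silent Itga2 and Itga10, summed to 66.5 ± 0.540% of alpha subunit FPKM in PDGF-BB+PTUPB, 51.7 ± 0.900% in PDGF-BB and 63.7 ± 4.95% in Control. The RGD-binding subunits summed to 30.1 ± 0.492%, 42.05 ± 0.947% and 32.6 ± 4.51%. Summed alpha subunit FPKM was 605.3 ± 41.4 in PDGF-BB+PTUPB, 410.3 ± 40.6 in PDGF-BB and 604.5 ± 150 in Control, and Control replicate 2 (432.9) lay below the highest PDGF-BB library (446.3). These shares and sums are descriptions and carry no test.

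**Figure D2:**
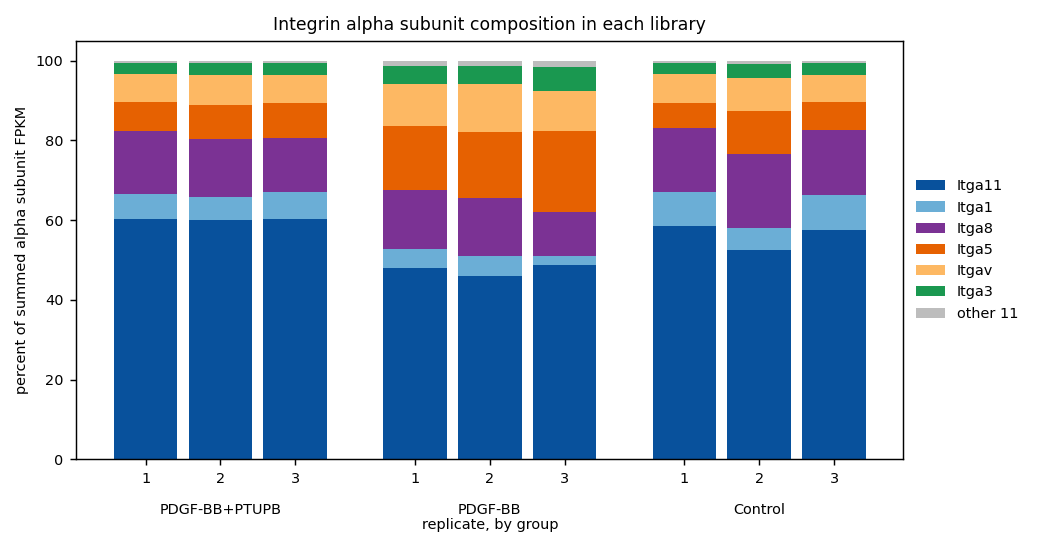
Share of each integrin alpha subunit in the summed alpha subunit FPKM (percent, stacked) in each library, grouped as PDGF-BB+PTUPB, PDGF-BB and Control. Itga11 is the largest block in every library and is smallest in the PDGF-BB libraries (46.0% to 48.6%), where Itga5 is widest (16.1% to 20.4%).

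The start regions of the 3 alpha subunits that fell and the 1 that rose with PDGF-BB are shown for reading beside their values. RefSeq promoter windows (build GRCr8) were matched by symbol for 33 of the 43 members, in 38 windows. The sequences are the 250 bases before the annotated start, 5′ to 3′ on the gene's strand, and capitals mark a GC box (GGGCGG or its reverse complement).
Itga11, chr8:72041182-72041431, plus strand: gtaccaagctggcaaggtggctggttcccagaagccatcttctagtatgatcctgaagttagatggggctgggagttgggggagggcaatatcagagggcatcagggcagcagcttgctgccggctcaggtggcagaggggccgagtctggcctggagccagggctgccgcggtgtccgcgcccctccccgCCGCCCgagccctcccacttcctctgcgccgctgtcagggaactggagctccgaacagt
Itga1, chr2:48545284-48545533, minus strand: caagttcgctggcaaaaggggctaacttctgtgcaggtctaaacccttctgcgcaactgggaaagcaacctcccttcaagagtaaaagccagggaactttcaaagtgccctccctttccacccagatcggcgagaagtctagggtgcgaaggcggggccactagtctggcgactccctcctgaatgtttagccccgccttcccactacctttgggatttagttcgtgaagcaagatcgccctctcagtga
Itga8, chr17:80410634-80410883, minus strand: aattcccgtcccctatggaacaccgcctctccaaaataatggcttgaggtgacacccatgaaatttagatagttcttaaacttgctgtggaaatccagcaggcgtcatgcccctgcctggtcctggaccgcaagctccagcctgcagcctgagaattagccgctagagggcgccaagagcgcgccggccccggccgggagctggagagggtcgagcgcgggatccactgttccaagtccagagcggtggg
Itga5, chr7:136381306-136381555, minus strand: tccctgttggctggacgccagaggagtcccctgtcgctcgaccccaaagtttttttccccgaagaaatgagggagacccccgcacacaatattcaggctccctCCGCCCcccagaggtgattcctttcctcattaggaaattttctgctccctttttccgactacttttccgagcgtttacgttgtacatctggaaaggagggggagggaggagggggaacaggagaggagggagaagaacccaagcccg
The Itga11 window holds 1 GC box, beginning 59 bases before the start, and the Itga5 window holds 1, beginning 147 bases before it, while the Itga1 and Itga8 windows hold none. The letters GGGCGG on either strand occurred in 21 of the 38 member windows (55.3%) and in 30.5% of all 33469 windows of this length. The letters GGAATG of TEAD factors, searched on both strands, occurred in 8 member windows (21.1%), Itgb1, Vcl, Flna and Lims2 among them, and in 12.1% of all windows. The palindromic AP-1 letters TGANTCA occurred in 1 member window (Itgax) against 6.34% of all, and the CArG box of serum response factor in 1 (Itgb6) against 1.5% of all. None of the 4 windows printed holds the TEAD, AP-1 or CArG letters. A match is a description of letters in the window and not of a bound site.

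With PDGF-BB, transcripts of the collagen receptors alpha1 and alpha11 and of alpha8 fell (to 0.348 times the Control level for Itga1, 0.538 times for Itga11 and 0.520 times for Itga8), that of the fibronectin receptor alpha5 rose, and within the ILK complex Lims2 and Parva fell while Parvb rose. In all, 2 of 28 tested members were higher and 6 were lower in PDGF-BB than in Control (edgeR, p under 0.05 after Benjamini-Hochberg adjustment over all tested genes), 28.6% of those tested. Over all 11197 tested genes 33.2% were called, 17.3% higher and 15.8% lower, so the members were called about as often as genes at large. Their median log2 fold change was -0.0354 against -0.0168 for all tested genes. With scaling by library totals alone the same comparison called 5 members higher and 6 lower, with a log2 median over all genes of 0.0531.

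Itga11, the alpha11 subunit that binds fibrillar collagen, had 200.3, 205.4 and 178.1 FPKM in PDGF-BB replicates 1 to 3 and 417, 227.5 and 385.1 FPKM in Control. Every PDGF-BB library lay below every Control library, though Control replicate 2 came close. The log2 fold change was -0.89 ± 0.19 (SE, edgeR adjusted p = 0.00578). Itga1, the alpha1 collagen receptor, had 19.98, 22.55 and 9.05 FPKM in PDGF-BB and 59.21, 23.52 and 57.91 FPKM in Control. The groups did not overlap, but PDGF-BB replicate 3 stood below its group and Control replicate 2 lay within 1 FPKM of PDGF-BB replicate 2. Its log2 fold change was -1.52 ± 0.37 (edgeR adjusted p = 0.0104).

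Itga8, the alpha8 subunit typical of smooth muscle, had 62.38, 64.85 and 39.66 FPKM in PDGF-BB and 114.4, 80.39 and 110.1 FPKM in Control, with all PDGF-BB libraries lower. Its log2 fold change was -0.94 ± 0.20 (edgeR adjusted p = 0.00494). Itga5, the alpha5 subunit of the main fibronectin receptor, had 67.37, 73.95 and 74.74 FPKM in PDGF-BB and 44.73, 46.8 and 46.78 FPKM in Control. It moved the other way, with no overlap and a narrow spread in both groups, including Control replicate 2. Its log2 fold change was 0.57 ± 0.07 (edgeR adjusted p = 0.00016). Itgb1 was higher in all 3 PDGF-BB libraries than in any Control library, at the levels given above, but its log2 fold change of 0.26 ± 0.09 did not pass the test (edgeR adjusted p = 0.0520), and it passed under 10 of 20 alternative settings.

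Markers of adventitial fibroblasts moved in the same direction as Itga11, Itga1 and Itga8. Of the 6 tested genes of that list, 4 fell with PDGF-BB (Scara5, Pdgfra, Col14a1 and Dcn) and 0 rose, and the list's summed FPKM ranged from 1511 to 1745 in PDGF-BB+PTUPB, 951.3 to 1347 in PDGF-BB and 1443 to 2437 in Control. Levels within the list differed widely. Lum, Dcn, Scara5 and Pdgfra had mean Control FPKM of 671.2, 582.4, 338.6 and 265.9, and Col14a1 and Pi16 had 3.56 and 3.14. Cd34 and Dpt were at or near 0, with at most 2 and 6 counts in any group. Of the 9 tested smooth muscle markers, Itga8 among them, 5 fell and 1 rose. Mylk fell by 0.99, Myh11 by 1.04, Acta2 by 0.53 and Lmod1 by 0.40 on the log2 scale (edgeR adjusted p = 7.56e-05, 0.000326, 0.00898 and 0.0397). Synpo2 rose by 0.51 (edgeR adjusted p = 0.0175). Cnn1, Tagln and Smtn were not called, with log2 fold changes of 0.32, 0.28 and -0.0004. Of 3 tested leukocyte markers 1 fell (Lyz2), and that list's summed FPKM ranged from 23.2 to 24.1 in PDGF-BB+PTUPB, 17.3 to 19.2 in PDGF-BB and 17.4 to 26.4 in Control. The part of a changed cell mix in the integrin results was not tested.

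The adaptor complex that ILK forms with a PINCH and a parvin included 3 called members and 2 that were not called. Lims2 (PINCH-2) had 7.46, 6.25 and 6.77 FPKM in PDGF-BB and 19.53, 15.61 and 19.21 FPKM in Control, with PDGF-BB libraries all far below Control. Its log2 fold change of -1.48 ± 0.12 had the smallest p of the members (edgeR adjusted p = 2.21e-05). Parva (alpha-parvin, an actin-binding partner of ILK) had 77.32, 70.66 and 79.49 FPKM in PDGF-BB and 115.3, 109.2 and 104 FPKM in Control, and its paralog Parvb (beta-parvin) had 13.07, 14.23 and 15.8 FPKM in PDGF-BB and 9.78, 9.81 and 9.3 FPKM in Control. Neither gene's groups overlapped, and the paralogs moved in opposite directions, with log2 fold changes of -0.60 ± 0.08 for Parva and 0.51 ± 0.10 for Parvb (edgeR adjusted p = 0.000301 and 0.00375). Ilk, the pseudokinase at the centre of the complex, and Lims1 (PINCH-1) were not called, with log2 fold changes of -0.03 ± 0.08 and -0.31 ± 0.22. The Parvb to Parva FPKM ratio was 0.190 ± 0.0180 in PDGF-BB and 0.0880 ± 0.00278 in Control, and the Lims2 to Lims1 ratio was 0.213 ± 0.0836 in PDGF-BB and 0.440 ± 0.0331 in Control (SD, n = 3 each). Parva was the more abundant parvin in every library.

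Of the proteins that switch integrins on, Tln1 (talin-1) had 62.04, 67.02 and 68.16 FPKM in PDGF-BB and 106.9, 66.01 and 106.7 FPKM in Control. Control replicate 2 lay within the PDGF-BB range, and the other 2 Control libraries were well above it. The fall was called, at a log2 fold change of -0.58 ± 0.17 (edgeR adjusted p = 0.0223). Tln2 (talin-2) and Fermt2 (kindlin-2) were not called, at 0.24 ± 0.16 and -0.21 ± 0.08, but with the length term Tln2 had 0.56 and was called (edgeR adjusted p = 0.0165).

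The signalling and actin-linking proteins of the adhesion were not called in this comparison. Ptk2 (FAK, the kinase activated at adhesions) had 16.64, 20.93 and 15.61 FPKM in PDGF-BB and 19.2, 17.44 and 18.1 FPKM in Control, with overlapping groups and a log2 fold change of -0.11 ± 0.11 (edgeR adjusted p = 0.438). Vcl (vinculin, which links talin to actin) had 110, 116.4 and 111.3 FPKM in PDGF-BB and 133.8, 86.14 and 111.1 FPKM in Control. The Control values spread on both sides of the PDGF-BB values, and the log2 fold change was -0.04 ± 0.14 (edgeR adjusted p = 0.831), with a sign that changed under some scalings. Bcar1 (p130Cas), Zyx (zyxin), Actn1 and Actn4 (alpha-actinins) and Flna (filamin A) had log2 fold changes between -0.26 and 0.08, and Pxn (paxillin) had 0.22 ± 0.08 (edgeR adjusted p = 0.0557).

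The calls for Itga11, Itga1, Itga8, Itga5, Lims2, Parva and Parvb held under all 20 alternative settings of this comparison. The call for Tln1 was lost with the length term (log2 fold change -0.21, adjusted p = 0.285), with limma on log2(FPKM + 0.1) (0.0507), and without Control replicate 1 (0.0835), Control replicate 3 (0.0883), PDGF-BB replicate 1 (0.071) or PDGF-BB replicate 2 (0.0572). Without Control replicate 1, 4 members were higher, Itgb1 (edgeR adjusted p = 0.0264) and Itga6 (0.0115) being added, and without Control replicate 2 Flna (0.00338) and Fermt2 (0.0299) were also lower. Without PDGF-BB replicate 3, Itgb1 (edgeR adjusted p = 0.0372) was also higher and Zyx (0.0273) lower, Pxn (0.0197) was higher without PDGF-BB replicate 2, and Itga7 (0.0191) was higher without Control replicate 3. With the length term, Itgb1 (log2 fold change 0.36, edgeR adjusted p = 0.00381), Itga7 (0.63, 0.0134), Itga6 (0.92, 0.0271) and Pxn (0.33, 0.0153) were called higher in addition to Tln2. With Control replicate 2 and PDGF-BB replicate 3 both left out, Itgb1 (edgeR adjusted p = 0.03) and Itgbl1 (0.00734) were also higher and Flna (0.000759), Zyx (0.0043) and Fermt2 (0.0321) also lower.

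**Figure D3:**
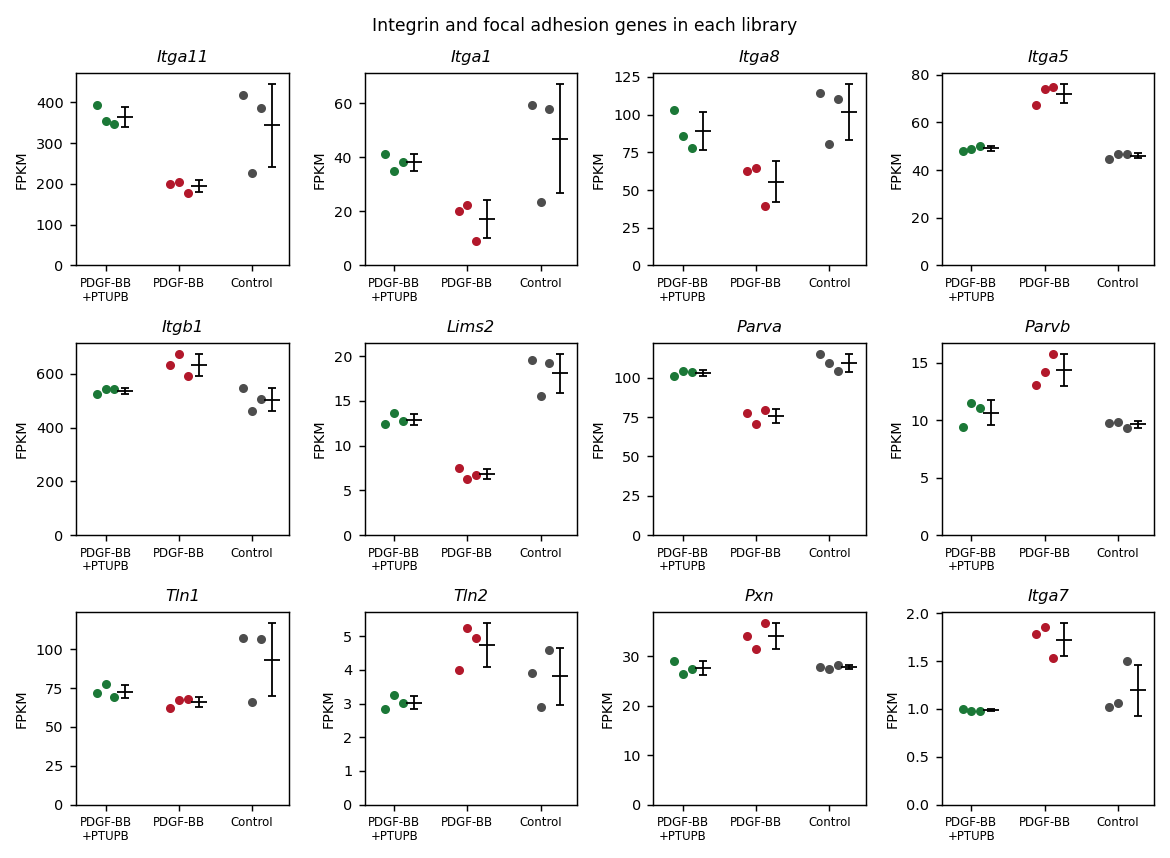
FPKM of 12 members in each library (points) with the mean and SD beside them, for PDGF-BB+PTUPB, PDGF-BB and Control (n = 3 each), on linear axes from 0. The PDGF-BB libraries are the lowest for Itga11, Itga1, Itga8, Lims2 and Parva and the highest for Itga5, Itgb1, Parvb, Pxn and Itga7.

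When PTUPB preceded PDGF-BB, the collagen receptors, alpha8, Lims2 and Parva were higher than in cells given PDGF-BB without it, and alpha5, alpha7, Parvb, paxillin and talin-2 were lower. Of 28 tested members, 5 were higher and 5 were lower in PDGF-BB+PTUPB (edgeR adjusted p under 0.05), 35.7% of those tested, against 18.3% of all tested genes (8.28% higher and 10.0% lower). The members' median log2 fold change was -0.0308 against 0.00641 for all tested genes. This comparison shares its PDGF-BB libraries with the one against Control, so opposite signs in the pair are partly set by the shared libraries. The members called in both were Itga1, Itga11, Itga8, Lims2, Parva, Itga5 and Parvb. The share of all tested genes called in both was not counted, so this list is a description only.

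Itga11 had 393, 353.4 and 345.9 FPKM in PDGF-BB+PTUPB replicates 1 to 3, against 200.3, 205.4 and 178.1 FPKM in PDGF-BB. The groups were far apart, and the log2 fold change was 0.95 ± 0.19 (edgeR adjusted p = 0.00895). Itga1 had 41.13, 35.05 and 38.16 FPKM in PDGF-BB+PTUPB, against 19.98, 22.55 and 9.05 FPKM in PDGF-BB, with a log2 fold change of 1.19 ± 0.37 (edgeR adjusted p = 0.0488). The groups did not overlap, and the size of the change depended on PDGF-BB replicate 3, without which it was 0.89. Itga8 had 102.9, 86.02 and 78.08 FPKM in PDGF-BB+PTUPB, against 62.38, 64.85 and 39.66 FPKM in PDGF-BB. All PDGF-BB+PTUPB libraries were higher, and the log2 fold change was 0.72 ± 0.20 (edgeR adjusted p = 0.0306). Markers of several cell types were higher alongside and 0 were lower: 3 of 6 tested adventitial fibroblast genes (Scara5, Col14a1 and Pdgfra), 2 of 3 leukocyte genes (Lyz2 and Cd14), 1 of 1 endothelial gene (Egfl7) and 3 of 9 smooth muscle genes (Mylk, Myh11 and Itga8 itself). Their part in these results was not tested.

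Itga5 had 47.88, 49 and 50.31 FPKM in PDGF-BB+PTUPB, against 67.37, 73.95 and 74.74 FPKM in PDGF-BB. The groups were well separated, and the log2 fold change was -0.51 ± 0.07 (edgeR adjusted p = 0.00132). Itga7, the alpha7 laminin receptor subunit of muscle, was near the filter, with 1, 0.98 and 0.98 FPKM in PDGF-BB+PTUPB, against 1.78, 1.86 and 1.53 FPKM in PDGF-BB. Its log2 fold change was -0.76 ± 0.18 (edgeR adjusted p = 0.0152). Itgb1 was lower in all 3 PDGF-BB+PTUPB libraries than in any PDGF-BB library but was not called, with a log2 fold change of -0.19 ± 0.09 (edgeR adjusted p = 0.170). The Itga11 to Itga5 FPKM ratio was 7.43 ± 0.692 in PDGF-BB+PTUPB, 2.71 ± 0.301 in PDGF-BB and 7.47 ± 2.33 in Control.

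In the ILK complex, Lims2 had 12.4, 13.61 and 12.74 FPKM in PDGF-BB+PTUPB, against 7.46, 6.25 and 6.77 FPKM in PDGF-BB, with a log2 fold change of 0.96 ± 0.12 (edgeR adjusted p = 0.00104). Parva had 101.2, 104.4 and 103.4 FPKM in PDGF-BB+PTUPB, against 77.32, 70.66 and 79.49 FPKM in PDGF-BB, with a log2 fold change of 0.48 ± 0.08 (edgeR adjusted p = 0.00305). Both genes were higher in every PDGF-BB+PTUPB library. Parvb had 9.45, 11.46 and 11.08 FPKM in PDGF-BB+PTUPB, against 13.07, 14.23 and 15.8 FPKM in PDGF-BB, and was lower in every one, with a log2 fold change of -0.39 ± 0.10 (edgeR adjusted p = 0.0250). The Parvb to Parva ratio was 0.103 ± 0.00877 in PDGF-BB+PTUPB, against 0.190 ± 0.0180 in PDGF-BB.

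Tln2, the talin of striated muscle and brain, had 2.84, 3.24 and 3.01 FPKM in PDGF-BB+PTUPB, against 3.99, 5.25 and 4.95 FPKM in PDGF-BB. The groups did not overlap, and the log2 fold change was -0.60 ± 0.17 (edgeR adjusted p = 0.0324). Tln1 had 71.52, 77.31 and 69.39 FPKM in PDGF-BB+PTUPB and was not called, with a log2 fold change of 0.19 ± 0.16 against PDGF-BB (edgeR adjusted p = 0.467). The Tln2 to Tln1 FPKM ratio was 0.0417 ± 0.00185 in PDGF-BB+PTUPB, 0.0718 ± 0.00705 in PDGF-BB and 0.0412 ± 0.00398 in Control, so talin-1 transcripts were the more abundant throughout. Pxn, the paxillin scaffold, had 29.07, 26.47 and 27.34 FPKM in PDGF-BB+PTUPB, against 34.05, 31.38 and 36.68 FPKM in PDGF-BB. All 3 values were lower, and the log2 fold change of -0.26 ± 0.08 passed narrowly (edgeR adjusted p = 0.0489). Vcl had 88.59, 92.32 and 88.83 FPKM in PDGF-BB+PTUPB and was lower in all 3 libraries than in any PDGF-BB library, without passing (-0.28 ± 0.14, edgeR adjusted p = 0.191), and Ptk2 had 18.1, 17.78 and 17.53 FPKM, with a log2 fold change of 0.05 ± 0.11 (edgeR adjusted p = 0.782).

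The calls for Itga11, Itga5, Lims2 and Parva held under all 20 alternative settings. The call for Itga1 was lost under 16 of them (log2 fold change 0.89 to 1.41, adjusted p up to 0.132), including every fit without 1 library except that without Control replicate 2, and that for Pxn under 10, including every fit without 1 library except those without Control replicate 2 and PDGF-BB replicate 2 (adjusted p up to 0.168). Tln2 was lost without PDGF-BB replicate 2 (0.0851) or 3 (0.071) or PDGF-BB+PTUPB replicate 1 (0.114), 2 (0.0699) or 3 (0.0924), Itga8 without PDGF-BB replicate 3 (0.056) or PDGF-BB+PTUPB replicate 1 (0.117) or 2 (0.0731), Parvb without PDGF-BB replicate 3 (0.0565) or PDGF-BB+PTUPB replicate 1 (0.104) or 3 (0.0538), and Itga7 without PDGF-BB+PTUPB replicate 1 (0.0523) or 2 (0.0536), all as edgeR adjusted p. The number of members lower was 1 without PDGF-BB+PTUPB replicate 1 and 2 without PDGF-BB replicate 3 or PDGF-BB+PTUPB replicate 2 or 3, and the number higher was 3 without PDGF-BB replicate 3 or PDGF-BB+PTUPB replicate 1 or 2. Calls over all genes were also fewer in these fits, with 540 genes lower without PDGF-BB+PTUPB replicate 1, 614 without replicate 2, 716 without replicate 3 and 1003 without PDGF-BB replicate 3, against 1121 with all libraries. Genes higher numbered 462 without PDGF-BB+PTUPB replicate 1, 495 without replicate 2 and 866 without PDGF-BB replicate 3, against 927 with all libraries. Itga6 was also lower without Control replicate 1 (edgeR adjusted p = 0.0255) or 2 (0.0288), and Vcl without Control replicate 2 (0.0315). With the length term Itga6 (log2 fold change -0.99, edgeR adjusted p = 0.0325), Itgb1 (-0.25, 0.0362) and Vcl (-0.39, 0.0335) were also lower. Without both Control replicate 2 and PDGF-BB replicate 3, Tln1 was higher (0.22, edgeR adjusted p = 0.0332), Itga6 (0.0421), Itgb1 (0.0242) and Vcl (0.0276) were lower and Pxn was lost (0.0516).

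**Figure D4:**
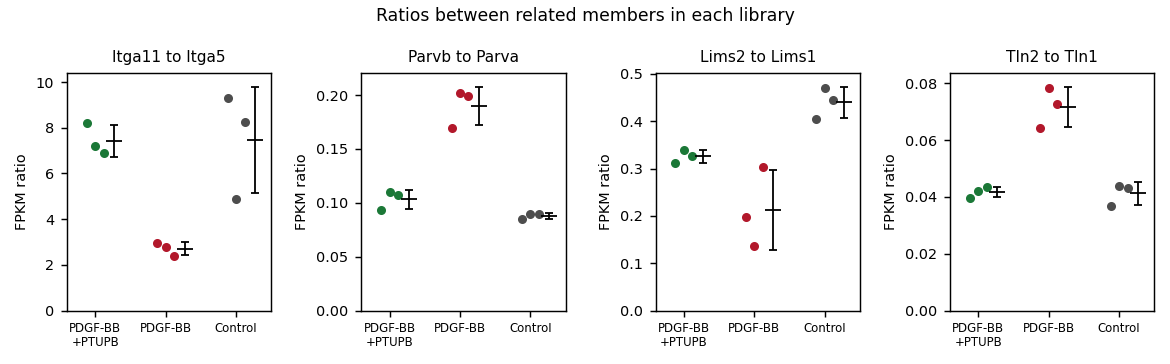
Ratio of the FPKM of related members in each library (points) with mean and SD, in PDGF-BB+PTUPB, PDGF-BB and Control (n = 3 each). The Parvb to Parva and Tln2 to Tln1 ratios are higher in every PDGF-BB library than in any other library, and the Itga11 to Itga5 ratio is lower.

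Set against Control, cells given PTUPB before PDGF-BB differed in 1 tested member. Lims2 had 12.4, 13.61 and 12.74 FPKM in PDGF-BB+PTUPB, against 19.53, 15.61 and 19.21 FPKM in Control, with no overlap and a log2 fold change of -0.51 ± 0.11 (edgeR adjusted p = 0.0456). The count of 0 higher and 1 lower (3.57% of 28) stood against 2.21% of all tested genes (1.89% higher and 0.313% lower), and the members' median log2 fold change was -0.0978 against -0.00976 over all genes. Itga11, Itga8, Itga1 and Itga5 had log2 fold changes of 0.05 ± 0.19, -0.22 ± 0.20, -0.33 ± 0.36 and 0.06 ± 0.07, and none was called (edgeR adjusted p = 0.932, 0.694, 0.756 and 0.745), which does not show that the groups were alike. The call for Lims2 was lost under 11 of 20 alternatives, including every fit without 1 library except those without Control replicate 2 and PDGF-BB replicate 3 (edgeR adjusted p up to 0.203). Without Control replicate 2, Flna (log2 fold change -0.54, edgeR adjusted p = 0.018), Tln1 (-0.59, 0.00605) and Vcl (-0.48, 0.024) were lower as well and Itgbl1 was higher (0.55, 0.0467). With PDGF-BB replicate 3 left out too, Itga1 (-0.66, 0.00106), Itga8 (-0.37, 0.0388), Tln2 (-0.53, 0.0211) and Actn1 (-0.32, 0.0351) were also called lower than Control by edgeR. In that fit 8 members were lower and 1 was higher, and over all tested genes 695 were lower and 650 higher, against 35 and 212 with all libraries. Flna had 309.1, 342.9 and 317.3 FPKM in PDGF-BB+PTUPB, against 478.4, 260.9 and 437.7 FPKM in Control, with Control replicate 2 the lowest of all 6 libraries.

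**Figure D5:**
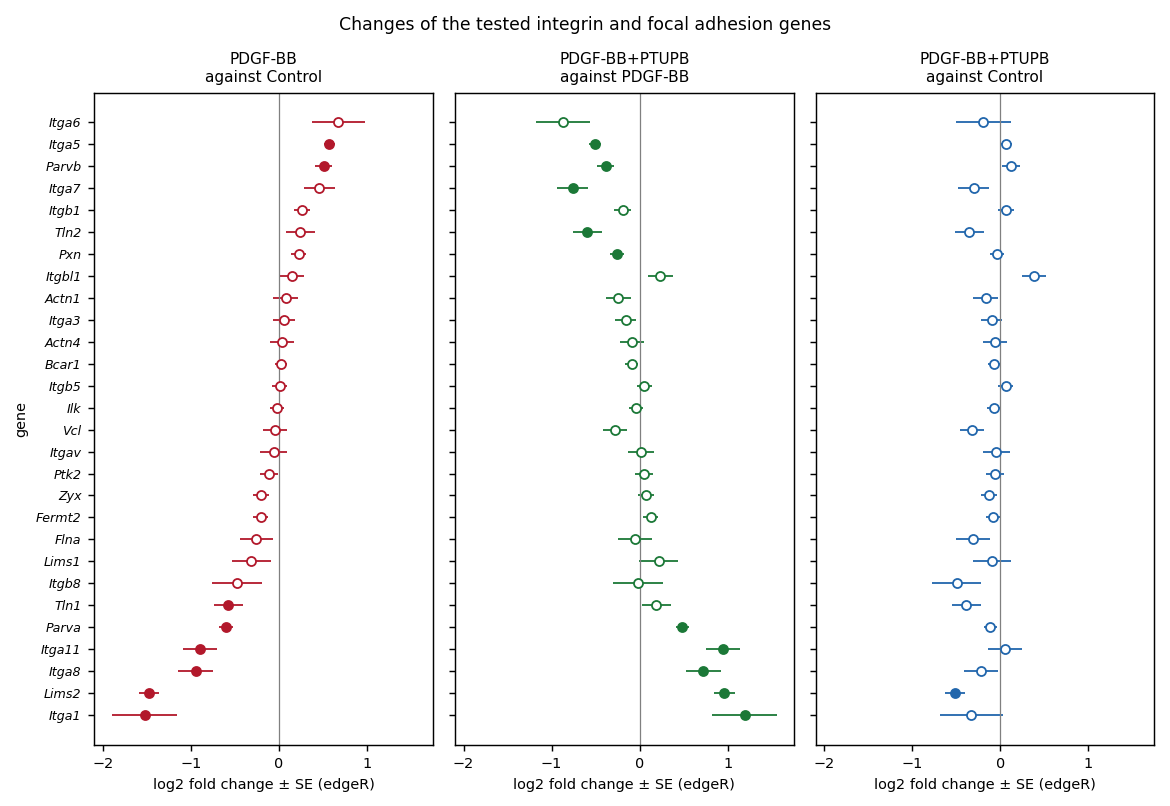
Log2 fold change (edgeR, with SE) of the 28 tested members in PDGF-BB against Control (left), PDGF-BB+PTUPB against PDGF-BB (middle) and PDGF-BB+PTUPB against Control (right), with filled points for adjusted p under 0.05. Filled points number 8, 10 and 1, and the first 2 panels share the PDGF-BB libraries.

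The 15 members that were not tested were the alpha subunits Itga2, Itga2b, Itga4, Itga9, Itga10, Itgae, Itgal, Itgam and Itgax, the beta subunits Itgb2, Itgb3, Itgb4, Itgb6 and Itgb7, and Fermt1 (kindlin-1, the epithelial kindlin). Their highest FPKM in any library was 0.95, for Itgae. The leukocyte subunits were near 0, with 13 counts over all 9 libraries for Itgb2, 5 for Itgal, 7 for Itgam and 4 for Itgb7. The platelet subunit Itga2b had 52 counts and its partner Itgb3, which also pairs with alphav, had 96. Itgax, the alphaX subunit, had 0.12, 0.08 and 0.06 FPKM in PDGF-BB+PTUPB, 0.4, 0.56 and 0.23 FPKM in PDGF-BB and 0.03, 0.18 and 0.06 FPKM in Control. When no filter was used it was higher in PDGF-BB than in Control (log2 fold change 2.05 ± 0.56, edgeR adjusted p = 0.0173) and lower in PDGF-BB+PTUPB than in PDGF-BB (-2.11 ± 0.57, edgeR adjusted p = 0.028), at these very low levels. It was named after its values were seen.

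Genes around the members were read from lists of ligands, scaffolds, signalling proteins, regulators and mechanical response genes. Among 22 tested integrin ligands, 5 rose and 7 fell with PDGF-BB (54.5% called). In PDGF-BB+PTUPB, 6 were higher and 3 lower than in PDGF-BB (40.9%), with 1 higher and 0 lower against Control (4.55%). Spp1 (osteopontin, an RGD ligand) had 553.9 FPKM in PDGF-BB+PTUPB, 1101 in PDGF-BB and 380.3 in Control on average, with log2 fold changes of 1.46 ± 0.09 for PDGF-BB against Control, -0.95 ± 0.09 for PDGF-BB+PTUPB against PDGF-BB and 0.52 ± 0.09 for PDGF-BB+PTUPB against Control (edgeR adjusted p = 6.64e-06, 0.000562 and 0.0136). Col3a1, a fibrillar collagen chain, averaged 587.8 FPKM in PDGF-BB+PTUPB, 1104 in PDGF-BB and 450.8 in Control. It rose by 1.22 ± 0.15 with PDGF-BB (edgeR adjusted p = 0.000266), the opposite direction to the collagen receptor transcripts. The collagen IV chains Col4a1 and Col4a2 moved in the same direction as those receptors. They fell by 0.51 ± 0.09 and 0.60 ± 0.10 with PDGF-BB (edgeR adjusted p = 0.00176 and 0.00125). Fbln5 (fibulin-5, an elastic fibre protein with an RGD motif) fell by 0.63 ± 0.07 and Lama4 (the laminin alpha4 chain) by 0.76 ± 0.09 (edgeR adjusted p = 0.000144 and 0.000156). Col1a1 was abundant and not called, at 2962, 2991 and 3128 FPKM in PDGF-BB+PTUPB, PDGF-BB and Control. Fn1, the fibronectin gene, is listed at 0 in all 9 libraries, so nothing can be said of the main ligand of alpha5.

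Of 27 tested scaffold and LIM domain proteins of adhesions, 4 rose and 9 fell with PDGF-BB (48.1% called). In PDGF-BB+PTUPB, 3 were higher and 3 lower than in PDGF-BB (22.2%), with 0 called against Control. Fblim1 (migfilin, which binds kindlin and filamin) fell by 0.58 ± 0.10 and was 0.36 ± 0.10 higher with PTUPB (edgeR adjusted p = 0.00196 and 0.0348). Cav1, the caveolae protein, rose by 0.68 ± 0.09 and was lower with PTUPB (-0.57 ± 0.09; edgeR adjusted p = 0.000396 and 0.00315). Of 38 tested signalling genes, 7 rose and 7 fell with PDGF-BB (36.8% called, near the 33.2% of all tested genes). With PTUPB, 3 were higher and 2 lower than without it, with 0 called against Control. The share of 13.2% called with PTUPB against PDGF-BB was below the 18.3% of all tested genes. Nedd9, a relative of Bcar1 that FAK also binds, fell by 0.70 ± 0.12 and was 0.51 ± 0.12 higher with PTUPB (edgeR adjusted p = 0.0019 and 0.0178). Rhoa, the GTPase that drives stress fibres, rose by 0.32 ± 0.07 (edgeR adjusted p = 0.00741).

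Of 26 tested regulators of integrin activity and trafficking, 2 rose and 4 fell with PDGF-BB (23.1% called). In PDGF-BB+PTUPB, 1 was higher and 3 lower than in PDGF-BB (15.4%), with 0 called against Control. Both shares were below those of all tested genes (33.2% and 18.3%). Rapgef1, an exchange factor for Rap1, fell by 0.55 ± 0.10, and Cd47, an integrin-associated membrane protein, rose by 0.37 ± 0.09 (edgeR adjusted p = 0.00264 and 0.00887). Slc3a2 (CD98 heavy chain, which binds beta1 tails) fell by 0.36 ± 0.09 and was 0.33 ± 0.09 higher with PTUPB (edgeR adjusted p = 0.0111 and 0.0289). Of 20 tested targets of YAP and SRF, which respond to tension at adhesions, 2 rose and 6 fell with PDGF-BB. With PTUPB before PDGF-BB, 4 were higher and 2 lower than in PDGF-BB, with 0 called against Control. The shares called with PDGF-BB and with PTUPB against PDGF-BB were above those of all tested genes (33.2% and 18.3%). Whether these shares differed from those of all tested genes beyond chance was not tested, nor was a response to tension. Ankrd1 fell by 1.85 ± 0.28 and Amotl2 by 0.80 ± 0.13, and they were 1.00 ± 0.29 and 0.63 ± 0.13 higher with PTUPB (edgeR adjusted p = 0.000907, 0.00149, 0.0388 and 0.0105). Axl, a receptor kinase in the same list, rose by 0.39 ± 0.08 (edgeR adjusted p = 0.00468). In PDGF-BB+PTUPB it was lower than in PDGF-BB, with a log2 fold change of -0.44 ± 0.08 (edgeR adjusted p = 0.00601).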

How the data were processed

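RNA-seq libraries were made from poly(A) RNA with random priming, per the labels' protocols. The submitters' processing notes name cutadapt 1.9.1, HISAT2 2.0.1 and HTSeq 0.6.1. As deposited, the authors' table holds for every gene and library an expected count; 978 genes, Actn4, Itgae, Itgb4 and Itgb5 among them, have values that are not whole, and how these arose is not stated. The same deposited table gives FPKM, which was recomputed from counts and exonic lengths to within 0.005. The notes name mm10, a mouse build, while all 32623 identifiers are rat Ensembl identifiers, so no coordinates of the table are given. The counting strand is not stated, so reads of overlapping antisense genes cannot be told apart.

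Counts were rounded and fitted with edgeR 4.0.16 in R 4.3.3 (quasi-likelihood F test after TMM scaling, 1 fit of all 9 libraries with no term but group, 6 residual degrees of freedom, biological coefficient of variation 0.137). Genes with FPKM of at least 1 in at least 3 libraries (11197) were tested, two-sided, and adjusted over all of them. The test was checked on simulated counts with the same spread for all genes. The simulated counts had no length trend and no library that stood apart, so the check does not cover those features. The alternatives were RLE scaling, library totals, DESeq2 1.42.0, limma 3.58.1 on log2(FPKM + 1) and log2(FPKM + 0.1), other filters, a replicate block, a length term fitted by loess, and fits without libraries.

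The members and lists were chosen with earlier results of these data known. Values in every library are given for Itga8, Itgb1, Ptk2, Vcl and Tln1 and for up to 6 called members of smallest p per direction and comparison; up to 4 called genes per list and comparison are named. Genes named beyond that, such as Flna, Itgax, Col1a1, Col4a1, Col4a2, Lum, Synpo2 and Fn1, were chosen after their values were seen. Palld, Crkl, Mrtfb and Pecam1 were not analysed here. A gene that the naming rule would select is not reported here.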

Additional observations from a re-analysis of the deposited data

How the results depend on the processing

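Of 20 alternatives per comparison, PDGF-BB against Control called 5 members higher with library totals, 4 with DESeq2, with limma at either pseudocount and with edgeR's own count filter, 7 with the length term and 6 with the length term and replicate block, against 2 as reported. Over all genes, 2410 were higher with library totals and 1935 with the length term, against 1942 as reported. The number was 1984 with DESeq2, 2427 and 2417 with limma at pseudocounts of 1 and 0.1, and 2044 with edgeR's own count filter. With the length term and replicate block it was 1805. The edgeR count filter tested 33 members and 12107 genes, against 28 and 11197 in the reported fit, so its counts have another base. With Control replicate 2 and PDGF-BB replicate 3 both left out, 4 members were higher and 9 lower, and PDGF-BB+PTUPB against PDGF-BB gave 6 higher and 7 lower. For PDGF-BB against Control, leaving out 1 library gave 2 to 4 members higher and 5 to 8 lower (6 as reported). For PDGF-BB+PTUPB against PDGF-BB the members lower numbered 3 with the replicate block and 8 with the length term (5 as reported), and leaving out 1 library gave 3 to 5 higher and 1 to 7 lower. Over all genes 872 were lower with the block and 1266 with the length term, against 1121 as reported. For PDGF-BB+PTUPB against Control the members lower numbered 0 with limma at either pseudocount, with the replicate block and with the length term and block (1 as reported), and leaving out 1 library gave 0 to 1 higher and 0 to 4 lower. Without both libraries that stood apart, 8 members were lower and 1 higher, and over all genes 695 were lower and 650 higher (35 and 212 as reported). The cause of these shifts was not tested.

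The replicate block was fitted although same-numbered libraries did not deviate together (1 of 9 pairs correlated above 0.1, range -0.238 to 0.177), so the numbers were not taken as pairs. Under the block, PDGF-BB against Control still gave 2 higher and 6 lower, and PDGF-BB+PTUPB against PDGF-BB gave 4 higher. The calls lost under the block were Itga1 (edgeR adjusted p = 0.0763), Pxn (0.0644) and Tln2 (0.0534) in the same comparison and Lims2 (0.0901) against Control.

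Alternatives gave log2 fold changes on both sides of 0 for 9 of 28 tested members in PDGF-BB against Control, 8 when PDGF-BB+PTUPB was set against Control and 6 when it was set against PDGF-BB, 0 of them called. Among members with values in every library, the following signs changed. Vcl in PDGF-BB against Control was 0.029 with library totals, 0.051 and 0.052 with limma at pseudocounts of 1 and 0.1, 0.17 with the length term and 0.18 with the term and block, and ranged from -0.20 (without Control replicate 2) to 0.13 (without Control replicate 1) when 1 library was left out. Ptk2 in PDGF-BB+PTUPB against PDGF-BB was -0.028 without PDGF-BB replicate 3, alone or with Control replicate 2, and at most 0.17 without another library. Against Control, PDGF-BB+PTUPB gave -0.0098 for Itgb1 and -0.18 for Itga11 without Control replicate 2, alone or with PDGF-BB replicate 3, -0.00465 for Itga11 without PDGF-BB+PTUPB replicate 1 (highest 0.14 for Itgb1 and 0.23 for Itga11, both without Control replicate 1), and 0.011 for Pxn with the length term (0.0099 with the block). Summed alpha subunit FPKM ranged from 551.1 to 690.3 in Control when 1 of its libraries was left out. With 3 libraries per group, the largest standard error was that of Itga1 (0.37 in PDGF-BB against Control).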
